A study of Sus scrofa with 20 samples.

Results

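The 9 genes described here encode apolipoproteins, the protein components of blood lipoprotein particles: APOA1, APOA2, APOA4, APOA5, APOB, APOC3, APOE, APOH and APOM. They were found by gene name, 1 row each, among the 25764 genes of a pig RNA-seq table, and all 9 passed a filter that kept genes with 10 or more normalized counts in 2 or more libraries. The set was chosen by its readout, because APOA1 stayed high in porcine biliary tree stem cells (pBTSCs) while APOB fell. Levels of the 9 genes in pBTSCs against liver are therefore given as a description, without a test. Of the 20 libraries, 5 were pBTSCs and 15 were liver cells sorted by surface antigens into CD45-/EpCAM+ (4 libraries), CD45-/EpCAM- (2), CD45+ (5), CD31+ (2) and CD146+ (2). The study defines biliary tree stem cells as CD45- and EpCAM+. For genetic studies its methods describe immunoselection and then a short serum-free culture, in which organoids with early mesenchymal cells formed. The labels place the pBTSCs in the gallbladder, and the study describes cell suspensions of gallbladder and extrahepatic ducts of newborn piglets, 1 library per piglet. By the study's sample list, 3 of these piglets belonged to an H2B-GFP line and 2 were wild-type, all aged 1 day apart from the third H2B-GFP piglet, aged 2 days. The H2B-GFP animals carry a fluorescent histone transgene in the ACTB locus, from breeding a transgenic boar with a wild-type gilt. The study's methods take its stem, progenitor and hepatocyte fractions from fetal or neonatal livers and name 5 donors for pig cells, fewer than the liver libraries. Which animal gave each liver library was not stated, and liver libraries are named by their label number (S4, S9 and so on).

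Apolipoproteins wrap and solubilize lipid for transport in blood. APOB is the large structural protein of triglyceride-rich and low density lipoproteins and is secreted only after lipid is loaded onto it by MTTP, the microsomal triglyceride transfer protein, whereas APOA1 is the main protein of high density lipoprotein (HDL) and takes up cholesterol exported by cells. In adult mammals, hepatocytes and enterocytes make most of both, and APOE is in addition made by macrophages and other cells outside the liver.

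Depth, estimated from the smallest steps in the values, ranged from 21300000 to 77800000 reads in 17 libraries and was under 2000000 in the other 3, wild-type pBTSC piglet 1, CD45-/EpCAM+ S13 and CD146+ S22. A level at or under 3 reads is called here the floor. Of the sort antigens, PTPRC, which encodes CD45, overlapped between fractions, at 424 to 2687 normalized counts in CD45+ libraries and 450 to 3027 in CD45-/EpCAM+ libraries. EPCAM was at 1205 to 1779 in CD45-/EpCAM+ libraries and 491 to 1090 in CD45-/EpCAM- libraries, without overlap, but reached 1175 to 2232 in CD45+ libraries. The summed level of the hepatocyte markers, of which 13 of 15 listed had a row, was 50.7% to 137% of the CD45-/EpCAM+ mean in every liver library, CD45+, CD31+ and CD146+ included. In pBTSCs that sum was 0.135% to 2.44%, while mesenchymal markers stood at 400% to 1442% and gallbladder epithelium markers at 159% to 465% of the same mean. The gallbladder sum was carried by the mucins MUC5B and MUC5AC, without which the other 9 genes summed to 72.6% to 156%. Of 10 tested gallbladder markers, 5 were called higher than in CD45-/EpCAM+ cells, 2 lower (CFTR and CLDN4) and 3 neither, EPCAM among them. The pBTSC preparations therefore held abundant mesenchymal transcripts beside epithelial ones. In bulk libraries such as these, fewer cells of a type and less RNA per cell cannot be told apart.

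APOA1 was the least reduced of the 9 genes in pBTSCs. Its normalized counts were 23518, 27035 and 23582 in H2B-GFP piglets 1, 2 and 3 and 22643 and 27517 in wild-type piglets 1 and 2. The 15 liver libraries ran from 47969 in CD45-/EpCAM+ S13 to 210400 in CD45-/EpCAM- S5, with a median of 70935. All pBTSC libraries thus lay below all liver libraries, and the lowest liver library was 1.74 times the highest pBTSC library. The pBTSC mean was 24859 ± 2244 (SD, n = 5), and the 5 piglets in the same order stood at 28.1%, 32.3%, 28.2%, 27.0% and 32.9% of the CD45-/EpCAM+ mean. The coefficient of variation of APOA1 over the 5 pBTSC libraries was 9.03%, against a median of 12% over the 4212 genes with a mean of at least 1000 in pBTSCs. It was 48.8% over the liver libraries.

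The other HDL proteins did not share this pattern. APOA2, the second major protein of HDL, was at 0.904, 1.04 and 1.30 normalized counts in the H2B-GFP piglets, equal to 3.99, 4.02 and 2.03 estimated reads, and at 101 and 147 in the wild-type piglets. Liver libraries held 4638 to 21651 normalized counts of APOA2. APOM, a lipocalin that carries sphingosine 1-phosphate on HDL, was at 75.4, 87.1 and 79.1 in the H2B-GFP piglets and 63.4 and 108 in the wild-type piglets, against 822 to 4154 in liver. APOM was low but even among piglets, at 3.87% to 6.56% of the CD45-/EpCAM+ mean, whereas APOA2 differed between the piglet lines by far more than within them.

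APOB was reduced much further than APOA1. Its normalized counts were 97.7, 90.5 and 75.3 in the H2B-GFP piglets and 1124 and 1820 in the wild-type piglets, against 27739 in CD45+ S12 to 190601 in CD45-/EpCAM+ S4 and a liver median of 84569. This was 0.0707% to 0.0918% of the CD45-/EpCAM+ mean in H2B-GFP piglets and 1.06% and 1.71% in wild-type piglets. Both wild-type libraries were above all H2B-GFP libraries and far below every liver library.

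The triglyceride-regulating members were also low. APOC3, an inhibitor of lipoprotein lipase and of remnant uptake, was at 9.94, 15.9 and 3.24 normalized counts in the H2B-GFP piglets and 712 and 899 in the wild-type piglets, against 16836 to 146756 in liver. APOA5, which promotes lipolysis of triglyceride-rich particles, was at 18.2, 16.3 and 16.5 in the H2B-GFP piglets and 37.7 and 116 in the wild-type piglets, against 604 to 5496 in liver. APOA4, an intestinal and hepatic protein of chylomicrons and HDL, was at or under the floor in all 3 H2B-GFP libraries and in wild-type piglet 1, and at 21.1 in wild-type piglet 2, against 101 to 1180 in liver. The 37.7 normalized counts of APOA5 in wild-type piglet 1 were likewise at the floor of that shallow library, which leaves the deep wild-type library as the measured one for these last 2 genes.

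APOE, the ligand through which lipoprotein remnants are taken up by cells, kept an intermediate level. It was at 4030, 2235 and 4170 normalized counts in the H2B-GFP piglets and 4349 and 5524 in the wild-type piglets, against 38128 to 133762 in liver. The pBTSC libraries were at 3.21% to 7.92% of the CD45-/EpCAM+ mean, and H2B-GFP piglet 2 was the lowest. APOH, also called beta-2-glycoprotein I, a phospholipid-binding plasma protein, was at 57.8, 97.9 and 141 in the H2B-GFP piglets and 755 and 1432 in the wild-type piglets, against 20317 to 65730 in liver.

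**Figure D1:**
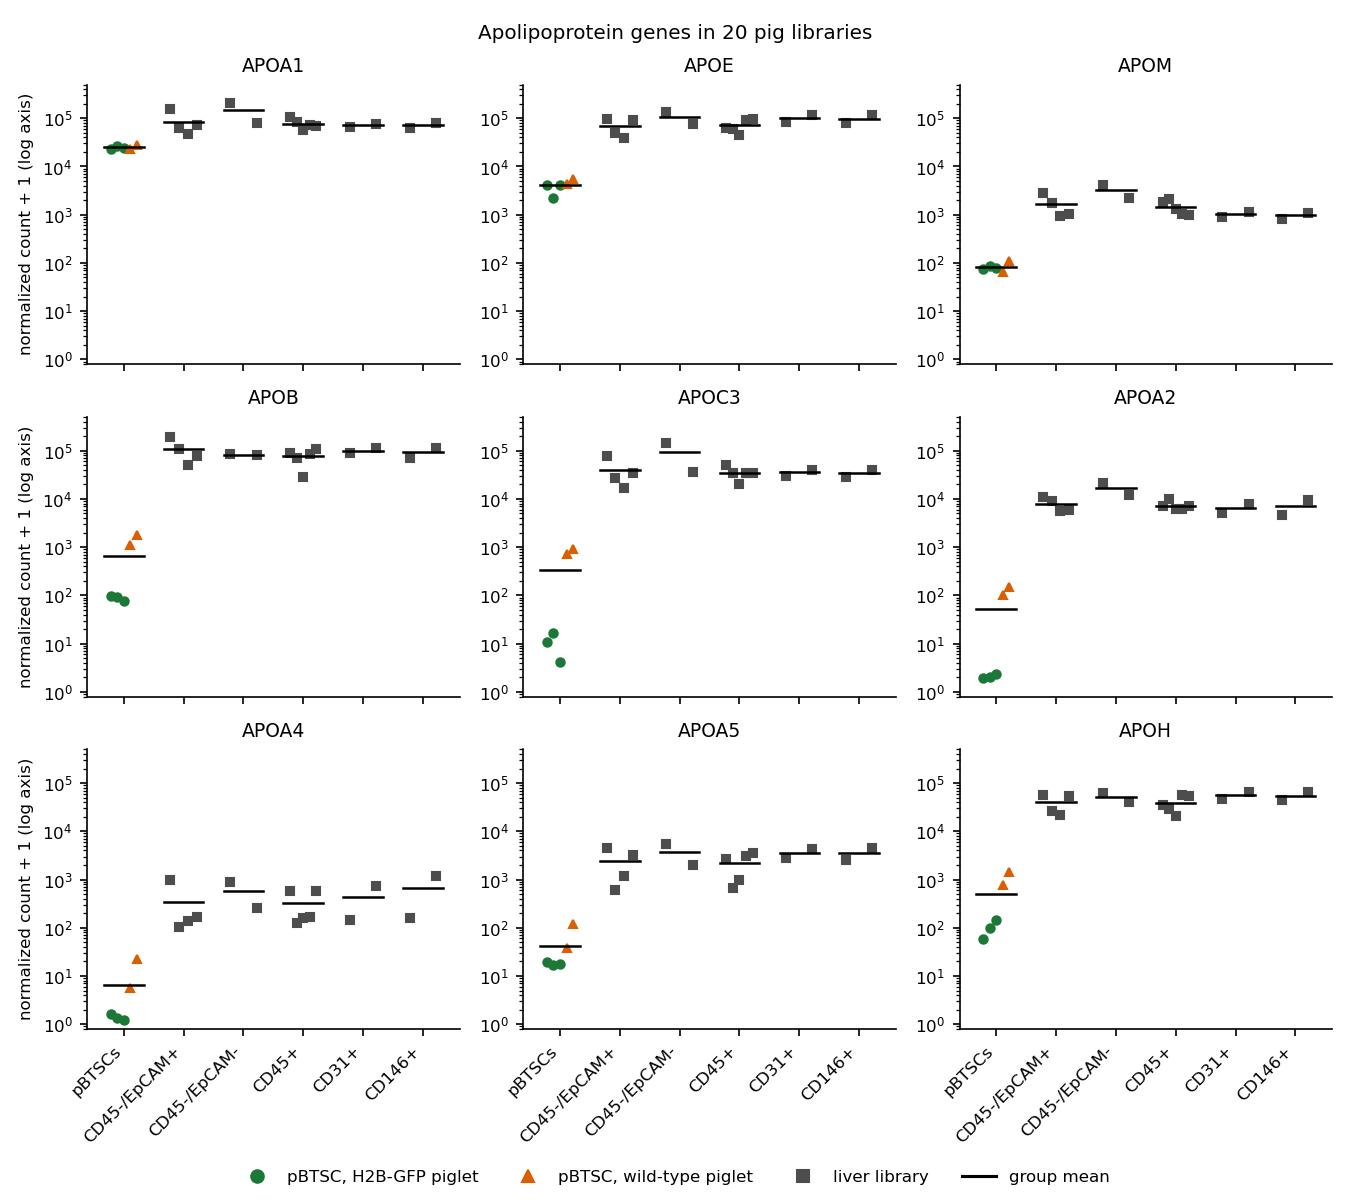
Normalized count + 1 (log axis) of the 9 apolipoprotein genes in each of the 20 libraries by sorted group, with pBTSC libraries coloured by piglet line and a bar at each group mean. APOA1 in pBTSCs sits between 22643 and 27517, closest to the liver libraries, whereas APOA4 and APOA5 are far lower, and APOB, APOC3, APOA2 and APOH are far lower and split by piglet line.

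In a limma fit over all 15576 tested genes on log2(normalized count + 1), the differences pBTSCs minus CD45-/EpCAM+ cells were, as a description, -1.61 for APOA1 (SE 0.36), -4.05 for APOE (SE 0.36) and -4.18 for APOM (SE 0.31) on the log2 scale. They were -5.88 for APOA5 (SE 0.67), -6.09 for APOA4 (SE 0.94), -7.23 for APOH (SE 0.72), -8.46 for APOB (SE 0.81), -9.25 for APOC3 (SE 1.23) and -9.47 for APOA2 (SE 1.07). Values of genes near the floor depend on the added 1. Against CD45-/EpCAM- cells the same difference was -2.40 for APOA1 and -8.24 for APOB. No test is drawn on the 9 genes here. As background, the shares of all tested genes called lower (limma adjusted p under 0.05 and a log2 difference under -1) were 10.3% against CD45-/EpCAM+, 16.6% against CD45-/EpCAM-, 9.54% against CD45+, 7.62% against CD31+ and 7.75% against CD146+ cells. All pBTSC libraries lay below all liver libraries for 9 of 9 genes and for 9.21% of all genes. Because the genes were chosen on these values, this count carries no further reading. Scaling moved these sizes. With each library set to the same total, the median of all genes rose from 0.08 to 0.39 and APOA1 was at -1.30. Relative to that median, APOA1 was at -1.69 with the deposited scaling and -1.70 with equal totals.

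Within pBTSCs most members differed in level between the piglet lines. The H2B-GFP libraries carry the labels S2, S7 and S11 and the wild-type libraries S15 and S20. The line and the label order therefore cannot be told apart. Both wild-type libraries were above all 3 H2B-GFP libraries for 7 of the 9 apolipoprotein genes and for 19.3% of all tested genes. The 7 include APOA4, which was at or under the floor in every pBTSC library except wild-type piglet 2, and APOA5, at the floor in wild-type piglet 1, so that for these 2 genes the shallow library gives no measured level. The exceptions were APOA1 and APOM, with a ratio of wild-type to H2B-GFP means of 1.01 and 1.06. The ratio was 1.42 for APOE, 4.54 for APOA5, 11.1 for APOH, 16.8 for APOB, 83.0 for APOC3 and 115 for APOA2, the last resting on 2.03 to 4.02 reads per H2B-GFP library. With 3 against 2 libraries, and with the line known only from the study's sample list, these ratios were not tested.

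Some other marker groups also differed between the lines. Both wild-type libraries were above all H2B-GFP libraries for 13 of 13 hepatocyte markers, with a median ratio of 15.7. Albumin (ALB) was at 376, 287 and 288 normalized counts in the H2B-GFP piglets and 19832 and 25087 in the wild-type piglets. The summed hepatocyte markers were at 0.135% to 0.226% of the CD45-/EpCAM+ mean in H2B-GFP piglets and at 1.66% and 2.44% in wild-type piglets. Macrophage markers, of which 7 of 10 were above all H2B-GFP libraries in both wild-type piglets, summed to 6.73% to 9.04% of that mean in H2B-GFP piglets and to 18.4% and 19% in wild-type piglets. Mesenchymal markers summed to 400% to 861% in H2B-GFP piglets and to 1429% and 1442% in wild-type piglets, with 5 of 9 genes above and 3 below all H2B-GFP libraries in both wild-type piglets. Of 11 gallbladder epithelium markers, 7 overlapped between the lines, KRT20 was above, and EPCAM, KRT7 and CLDN4 were below. The wild-type to H2B-GFP ratios of these last 3 were 0.632, 0.470 and 0.425. All 10 enterocyte markers overlapped between the lines. The study's quality list gives a lower RNA integrity number for each H2B-GFP library than for wild-type piglet 2, and none for wild-type piglet 1. The part of these marker groups and of RNA integrity in the apolipoprotein levels was not tested.

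**Figure D2:**
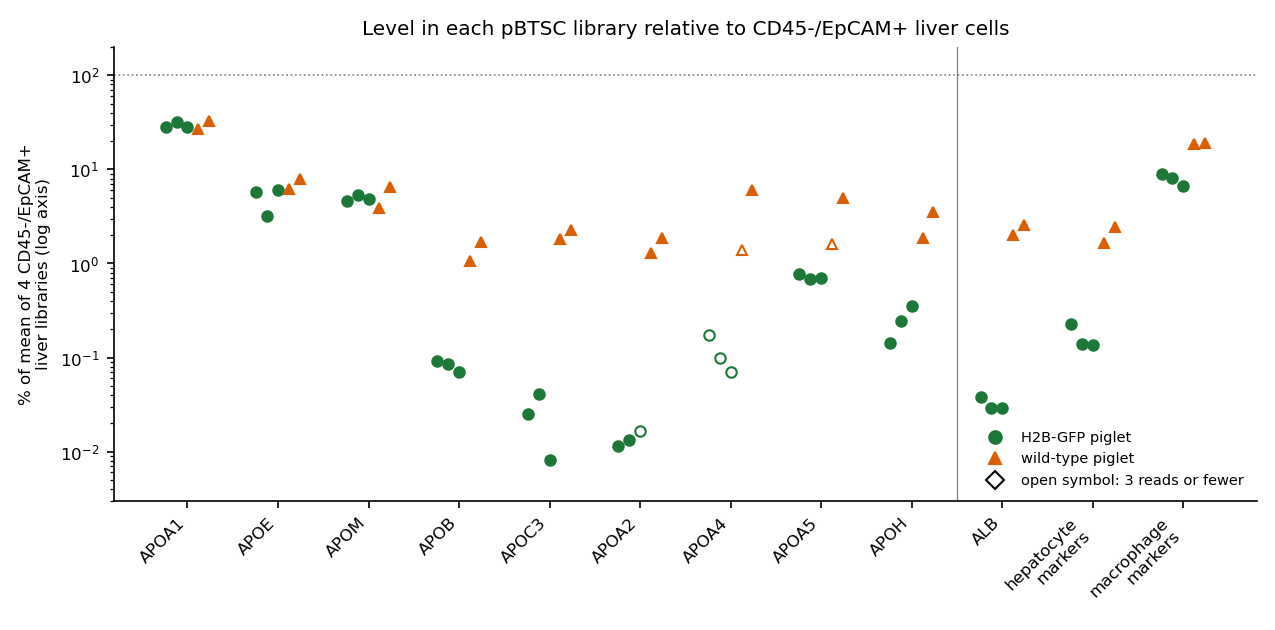
Each pBTSC library's level as a percentage of the mean of the 4 CD45-/EpCAM+ liver libraries (log axis; dotted line at 100%) for the 9 genes, ALB and 2 summed marker lists, by piglet line. APOA1 lies at 27.0% to 32.9% in both lines, while ALB and the hepatocyte markers split by line as APOB, APOC3 and APOH do; open symbols hold 3 reads or fewer.

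Set against albumin in the same library, the members fell apart. In liver, the ratio of APOA1 to ALB in normalized counts ran from 0.0402 to 0.317. It was 0.0402 to 0.0477 in liver libraries S16 to S23 and 0.0603 to 0.317 in S3 to S14, without overlap. The limits of the liver range therefore depend on which of these libraries are used. In pBTSCs it was 62.5 to 94.2 in the H2B-GFP piglets and 1.10 and 1.14 in the wild-type piglets, above every liver library. At the highest ratio seen in liver, the ALB level of each pBTSC library corresponded to 0.336% to 0.507% of the APOA1 level in H2B-GFP piglets and to 27.8% and 28.9% in wild-type piglets. The same figure for APOE was 1.39% to 2.59% in H2B-GFP piglets and 91.9% and 91.5% in wild-type piglets. For APOM it was 2.06% to 3.12% in H2B-GFP piglets and 196% and 146% in wild-type piglets.

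For APOA5 it was 14.4% to 17.2% in H2B-GFP piglets and 436% and 178% in wild-type piglets, and for APOH 19.4% to 62.0% and 250% and 167%. A figure under 100% means a ratio above every liver library, which held for APOA1, APOE, APOM, APOA5, APOH and APOB in all 3 H2B-GFP piglets, and for APOA1 and APOE in both wild-type piglets. The ratio of APOB to ALB was 0.0567 and 0.0725 in the wild-type piglets, inside the liver range of 0.0469 to 0.205, and 0.260 to 0.315 in the H2B-GFP piglets, above it. The ratio of APOC3 to ALB was 0.0359 in both wild-type piglets and 0.0112 to 0.0555 in the H2B-GFP piglets, against 0.0195 to 0.221 in liver. In liver libraries S16 to S23 alone it was 0.0195 to 0.0243, below both wild-type piglets. In each wild-type library, 7 of the 9 ratios to ALB were inside the liver range, all but those of APOA1 and APOE. In H2B-GFP piglets 1, 2 and 3 the number inside was 1, 3 and 2. These counts include APOA4 and APOA5 at or under the floor in wild-type piglet 1. They also include APOA2 and APOA4 near or under the floor in H2B-GFP piglets 2 and 3. The same count over all tested genes was not made, so these counts carry no further reading.

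Ratios between members showed the same contrast. APOA1 to APOB was 0.591 to 2.53 in liver, 241 to 313 in H2B-GFP piglets and 15.1 and 20.1 in wild-type piglets. APOA1 to APOC3, whose genes are next to each other, was 1.43 to 2.85 in liver, 1697 to 7281 in H2B-GFP piglets and 30.6 and 31.8 in wild-type piglets. APOE to APOC2, from another gene cluster, was 3.74 to 7.13 in liver, 617 to 6476 in H2B-GFP piglets and 16.5 and 17.3 in wild-type piglets. The 6476, in H2B-GFP piglet 3, rests on 0.644 normalized counts of APOC2, under that library's floor of 1.92. The 7281 of APOA1 to APOC3, in the same piglet, rests on 3.24 normalized counts of APOC3. The members were chosen because APOA1 stayed high and APOB fell in pBTSCs. The distance of these ratios from liver is therefore a description without a test and carries no further reading.

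**Figure D3:**
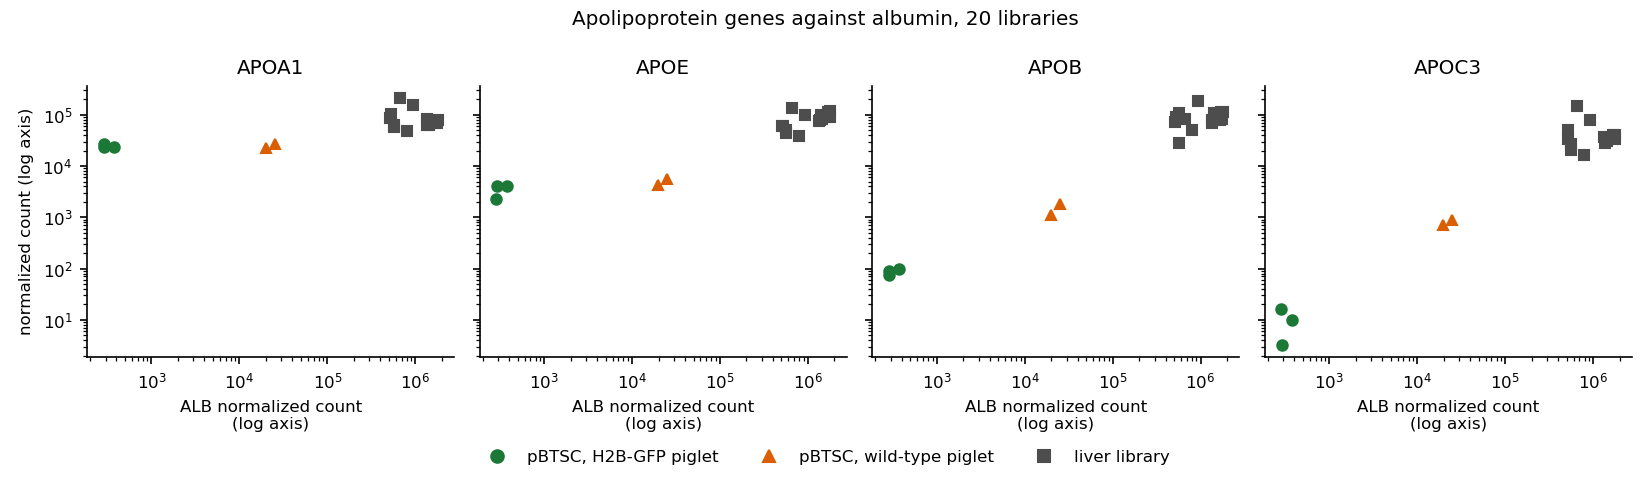
Normalized counts of APOA1, APOE, APOB and APOC3 against ALB in the same library (both axes log), 1 point per library. Across pBTSCs, APOB, APOC3 and ALB are all higher in wild-type than in H2B-GFP piglets, while APOA1 stays between 22643 and 27517 as ALB goes from 287 to 25087.

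In the RefSeq annotation of Sscrofa11.1, APOA1, APOC3, APOA4 and APOA5 form 1 cluster, with no annotated gene between APOA1 and APOC3 or between APOC3 and APOA4. Within this cluster APOC3, APOA4 and APOA5 were at or below 899 normalized counts in every pBTSC library, and APOA1 at or above 22643. SIK3, a kinase gene next to APOA1, was at 1199 to 1467 normalized counts in pBTSCs and 696 to 1439 in liver. RefSeq showed no gene overlapping APOA1, while APOA4 overlapped an annotated long non-coding RNA and APOA5 overlapped ZPR1, which was at 754 to 1279 in pBTSCs. Neither the gene models used for counting nor the strand setting was given in the sources used here, so reads shared between APOA5 and ZPR1 could not be told apart. No promoter or protein sequence of these genes was analysed here.

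Among the sorted liver groups the ranges of most apolipoprotein genes overlapped. CD45-/EpCAM- cells had the highest mean for 6 of the 9 genes, a count that rests on S5: without it the count was 2 (APOA2 and APOM), and without S14, the other library of that group, it was 8. The same count over all tested genes was not made. S5 also had the largest total of normalized counts, 3.03e+07, against 2.70e+07 in S4, the next largest. The part of this total in the levels of S5 was not tested. For APOA1 the means were 145849 ± 91288 in CD45-/EpCAM- (SD, n = 2), 83756 ± 47283 in CD45-/EpCAM+ (n = 4), 77117 ± 17859 in CD45+ (n = 5), 71698 ± 11569 in CD146+ (n = 2) and 70984 ± 8916 in CD31+ cells (n = 2). Each of these groups overlapped the next in that order. The same overlap between neighbours held for every other member except APOA2, whose 2 CD45-/EpCAM- libraries, at 21651 and 12192, were above the CD45-/EpCAM+ range of 5676 to 10930. For APOB the order ran from 106480 ± 60482 in CD45-/EpCAM+ to 76359 ± 30001 in CD45+ cells.

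None of the 9 genes was called between liver groups by limma with Benjamini-Hochberg adjustment over all genes. Between CD45-/EpCAM+ and CD45-/EpCAM- cells 2.80% of all genes were called. An unadjusted limma p under 0.05 was found for 3499 of all 15576 tested genes and for 1 of the 9 members. That member was APOM, with means of 1639 ± 852 and 3203 ± 1345 and a log2 difference of -1.04 (SE 0.40, limma adjusted p = 0.133). APOA1 differed by -0.79 (SE 0.47, limma adjusted p = 0.335). Between CD45-/EpCAM+ and CD45+, CD31+ and CD45-/EpCAM+, and CD146+ and CD45-/EpCAM+ cells, 0% of all genes were called in each comparison. There, 0 of the 9 members had an unadjusted limma p under 0.05, against 214, 506 and 2842 of the 15576 tested genes in that order. Standard errors of 0.31 to 1.59 on the log2 scale in these comparisons leave room for differences of that size. The fit had no term for the animal, which liver libraries may share. Between libraries of neighbouring label numbers, 7 of the 9 genes were higher in CD45-/EpCAM- S5 than in CD45-/EpCAM+ S4, where 47.3% of all tested genes were, and 9 of 9 were higher in CD45-/EpCAM- S14 than in the shallow CD45-/EpCAM+ S13, where 51.6% were. Whether such neighbours came from 1 animal was not stated, and these pairs were chosen after their values were seen.

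Single liver libraries stood out for some of the genes. CD45-/EpCAM- S5, the library of the largest total, held the highest level of APOA1, APOA2, APOA5, APOC3, APOE and APOM. The shallow library CD45-/EpCAM+ S13 held the lowest level of APOA1, APOC3 and APOE. APOA4 was at 977, 907, 585, 588, 742 and 1180 normalized counts in S4, S5, S3, S23, S21 and S22, and between 101 and 251 in the other 9 liver libraries. Those 6 libraries came from all 5 sorted groups and carry neighbouring label numbers, S3 to S5 and S21 to S23. APOA5 was lowest in S9, S8, S12 and S13, at 604, 677, 980 and 1208, libraries of the CD45-/EpCAM+ and CD45+ groups, and at 1958 or more elsewhere. What the label numbers stand for in liver libraries was not stated.

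Members paired off across the 15 liver libraries. On log2(normalized count + 1), Pearson's r was 0.978 for APOA1 with APOC3, 0.977 for APOE with APOH, 0.900 for APOA2 with APOM and 0.897 for APOA5 with APOH. It was 0.02 for APOA5 with APOM. These libraries share their scaling, and several may share a donor, so the values are a description only.

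**Figure D4:**
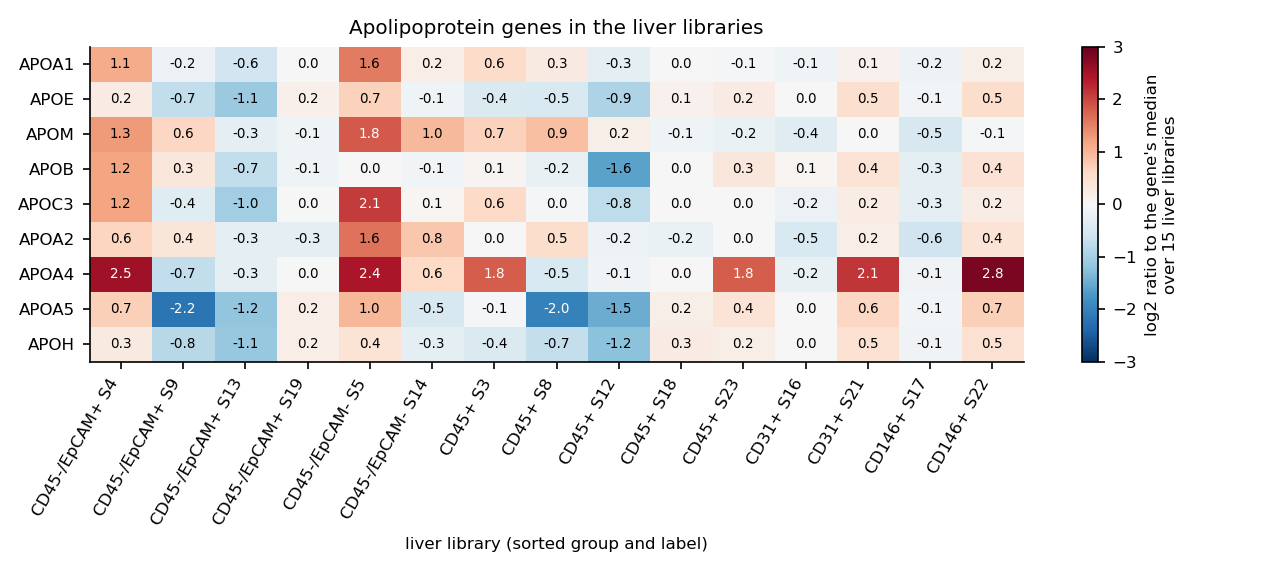
Log2 ratio of each gene's normalized count to its own median over the 15 liver libraries (colour and printed value), by library. APOA4 is raised in S3 to S5 and S21 to S23 across sorted groups, APOA5 is low in S8, S9, S12 and S13, and CD45-/EpCAM- S5 is high for most genes.

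The genes whose pattern over all 20 libraries was most like that of APOA1, by Pearson's r among 10461 genes, were HSD17B10 (0.989), GSTZ1 (0.981), GNMT (0.977), SLC25A4 (0.976) and SLC37A4 (0.975). They encode a mitochondrial dehydrogenase, an enzyme of tyrosine breakdown, glycine N-methyltransferase, a mitochondrial ADP/ATP carrier and the glucose 6-phosphate transporter. The genes most like APOB were CPB2 (0.997), MTTP (0.996), F2 (0.996), PLG (0.996) and SERPIND1 (0.996), which apart from MTTP encode plasma proteins of coagulation and fibrinolysis. Those most like APOE were C4BPB (0.994), HAAO (0.989), BCO1 (0.987), VTN (0.987) and TARSL2 (0.986). The step between pBTSCs and liver enters all of these values. Over the 15 liver libraries alone, HSD17B10 and GSTZ1 were also among the 5 genes most like APOA1, with r = 0.979 and 0.964. VTN was also among the 5 most like APOE there, with r = 0.969, and for APOB none of the 5 was.

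Genes of the lipoprotein pathway outside the 9 were taken as 5 lists, with 67 of 75 listed genes having a row and 65 tested. Against CD45-/EpCAM+ cells 37 were lower, 9 higher and 19 neither in pBTSCs, by limma with adjustment over all genes. Of all tested genes 10.3% were lower and 14.8% higher in that comparison, with a median of 0.08 on the log2 scale against -1.52 for the 65. Against CD45-/EpCAM- cells 37 were lower, 11 higher and 17 neither, where 20% of all genes were higher.

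Among the other apolipoproteins, 5 of 8 fell and 2 rose against CD45-/EpCAM+ cells. APOC2, the activator of lipoprotein lipase, was at 4.98, 3.62 and 0.644 normalized counts in the H2B-GFP piglets and 252 and 335 in the wild-type piglets, against 10201 to 32135 in liver (log2 difference -9.40, SE 1.17, limma adjusted p = 7.89e-06). APOC4 and APOF fell by 8.19 and 7.08 on the log2 scale. SAA4, a constitutive acute phase apolipoprotein, was listed at 0 in 4 of the 5 pBTSC libraries and at 50.2 to 618 in liver. APOD, a lipocalin expressed in many tissues outside the liver, rose. It was at 3054, 5604 and 1974 in the H2B-GFP piglets and 1783 and 1343 in the wild-type piglets, all above the liver range of 107 to 708 (log2 difference 3.18, SE 0.39, limma adjusted p = 7.99e-06). APOLD1, an endothelial gene of the apolipoprotein L domain family, rose by 1.29 (SE 0.47, limma adjusted p = 0.0366), with pBTSC values of 2117 to 3658 that overlapped the liver range of 318 to 3071.

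Of the 15 tested genes of particle assembly and secretion, 10 fell and 1 rose. MTTP was at 6.81, 6.20 and 6.36 normalized counts in the H2B-GFP piglets and 50.2 and 98.7 in the wild-type piglets, against 1326 to 6053 in liver (log2 difference -7.68, SE 0.67, limma adjusted p = 1.99e-07). PLA2G12B, a catalytically inactive phospholipase needed to load very low density lipoprotein, fell by 6.88, and CIDEB, a lipid droplet protein of the same route, fell by 5.27. CREB3L3, a transcription factor of apolipoprotein and fasting genes, fell by 5.67 against CD45-/EpCAM- cells. SORT1, the sorting receptor sortilin that binds APOB in the Golgi, rose by 1.90 (SE 0.18, limma adjusted p = 4.35e-07), at 2575 to 3234 in pBTSCs against 441 to 1092 in liver. The other 4, among them ABCA1, the cholesterol exporter that loads APOA1, were not called. ABCA1 was at 1557 to 2079 normalized counts in pBTSCs and 570 to 4498 in liver.

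Of the 12 genes acting on particles in plasma, 8 fell and 2 rose. LCAT, which esterifies HDL cholesterol with APOA1 as its cofactor, fell by 6.66 (SE 0.84, limma adjusted p = 9.3e-06). ANGPTL8, a regulator of lipoprotein lipase activity, was listed at 0 in 3 of 5 pBTSC libraries. LPL, lipoprotein lipase itself, rose, at 385, 1384 and 296 normalized counts in the H2B-GFP piglets and 108 and 248 in the wild-type piglets against 2.48 to 68.3 in liver (log2 difference 3.98, SE 0.77, limma adjusted p = 0.000563). GPIHBP1, which anchors this lipase on capillary endothelium, rose by 2.0 (SE 0.50, limma adjusted p = 0.00426). Its pBTSC values of 642 to 1166 overlapped the liver range of 105 to 865.

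The receptors for lipoproteins did not follow the general fall: 4 of 14 rose, 2 fell and 8 were neither. LRP2, the endocytic receptor megalin, rose by 2.67 (SE 0.62, limma adjusted p = 0.00261), and its partners CUBN, cubilin, which binds APOA1, and AMN, which carries cubilin to the membrane, rose by 2.54 and 2.76. Their levels were low, with CUBN at 24.8 to 62.8 and AMN at 4.62 to 26.1 normalized counts in pBTSCs, and the shallow wild-type piglet 1 was under its floor for AMN. VLDLR, a receptor for APOE, was at 2665 to 4069 in pBTSCs against 492 to 2213 in liver. HSPG2, the basement membrane proteoglycan perlecan, rose by 2.59 against CD45-/EpCAM- cells. MSR1, a macrophage scavenger receptor, fell by 3.21. SCARB1, the HDL receptor, was at 3094 to 5141 in pBTSCs and 2970.5 to 5052 in liver and was not called.

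Of the 16 nuclear regulators, 12 fell and none rose against CD45-/EpCAM+ cells. HNF4A, a transcription factor of hepatocytes and of gut and biliary epithelium, fell by 2.09 (SE 0.33, limma adjusted p = 9.32e-05), at 486 to 1366 normalized counts in pBTSCs against 1557 to 6468 in liver. NR0B2, the bile acid responsive repressor SHP, NR1H4, the bile acid receptor FXR, and MLXIPL, the carbohydrate response factor ChREBP, fell by 5.71, 4.73 and 4.49. NR2F2, an orphan receptor of mesenchyme and veins, rose by 1.5 against CD45-/EpCAM- cells.

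**Figure D5:**
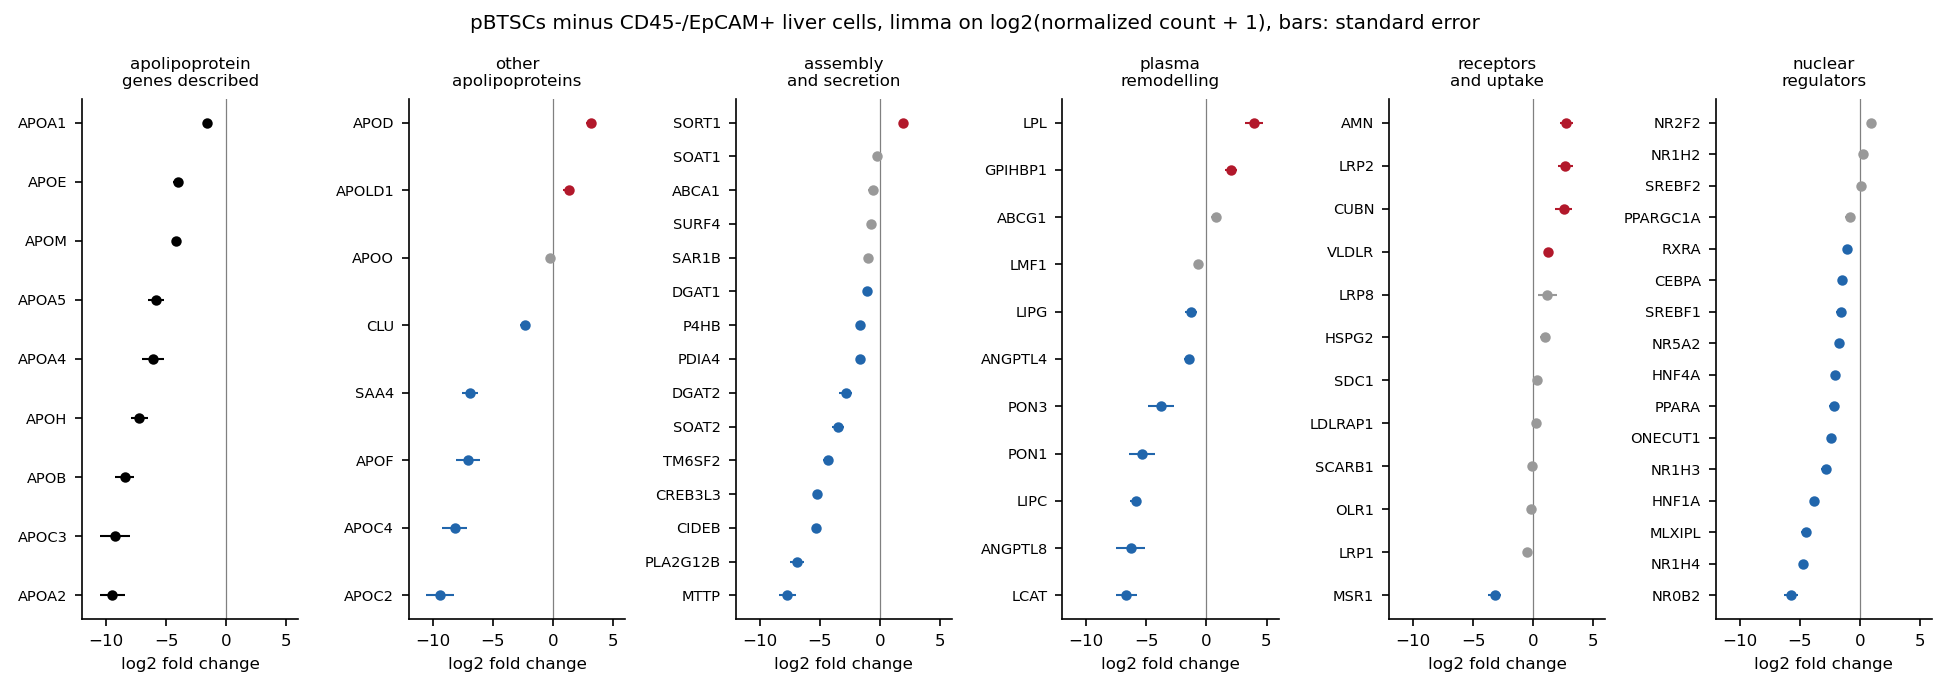
Log2 fold change with standard error, pBTSCs minus CD45-/EpCAM+ cells, for the 9 apolipoprotein genes (black, description only) and genes of 5 pathway lists (red, called higher; blue, called lower; grey, not called). Most genes of assembly, remodelling and regulation are lower, whereas APOD, LPL, LRP2 and SORT1 are higher and most receptors are not called.

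Of the enterocyte markers, 10 of 12 had a row. Of the 6 tested, 2 were called higher in pBTSCs than in CD45-/EpCAM+ cells, 1 lower and 3 neither, with a median log2 difference of 0.62. The higher ones were TREH, trehalase, at 28.9 to 176 normalized counts in pBTSCs against 4.24 to 25.7, and APOBEC1, the enzyme that edits APOB mRNA in the gut, at 13.4 to 126 against 0 to 15.5. In the CD45-/EpCAM- libraries TREH was at 39.6 and 44.3, inside its pBTSC range. Against CD45-/EpCAM- cells 1 of the 6 was called higher, 2 lower and 3 neither. CDX2, an intestinal transcription factor, was at 2.88 to 41.5 against 0 to 9.88 and was not called, and ANPEP was the lower one. FABP2, RBP2, CDX1, SI and MEP1A were at or below 2.20 normalized counts in the pBTSC libraries, while the summed list was at 21.8% to 39.3% of the CD45-/EpCAM+ mean, carried by ANPEP and VIL1, which biliary epithelium and other cells also express.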

How the data were processed

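The authors made poly(A) libraries with a stranded kit and deposited normalized counts, 1 value per gene and library in 1 table, which are treated here as a signal with no negative values. The submitters' processing notes name STAR, Salmon and DESeq2. Versions, genome build and annotation are not given in the sources used here. Of 25764 genes, 7782 had no name. Low values lay within 0.05 of a whole read for 60.3% to 84.3% of values per library, so count tests were not run. Library groups came from the labels and the piglet line from the study's sample list. Where nothing says otherwise, p-values measure the spread between these libraries.

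The package limma 3.58.1 under R 4.3.3 was used for the tests, with 1 fit of all 6 groups on log2(normalized count + 1), lmFit, eBayes with trend and Benjamini-Hochberg adjustment over 15576 genes. Calls required an absolute log2 fold change above 1 and an adjusted p under 0.05. The fit was tested on simulated data. Descriptions used Python 3.11.15 with pandas 2.3.3. The apolipoprotein genes and all lists were chosen with earlier results of these data known. Besides the 9 genes, the text names the 3 largest called rises and falls of each list in either CD45- comparison, the 5 genes most like APOA1, APOB and APOE by Pearson's r (mean of at least 100), ALB and marker sums. Of the sort antigens it names PTPRC and EPCAM. Levels of PECAM1 and MCAM, which encode CD31 and CD146, are not given here. Other genes, the gene neighbours and the ratios to albumin were chosen after their values were seen. Alternatives were other pseudocounts (0.1, 10), filters, scalings, fits and weights, each library left out in turn, and, added after seeing the data, each piglet line alone. A planned search for promoter motifs was not run. Values of 3 listed genes are not reported here, though they remain in the counts of their lists.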

Additional observations from a re-analysis of the deposited data

Results flagged for a closer look

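Of 27 sets of libraries tested for a single distant value (Dixon's 95% limit, which chance passes in about 1 of 20), 4 passed. APOA2 in CD45+ S8 was at 10071 normalized counts, against 6040 to 6983 in the other CD45+ libraries. APOA4 in CD45-/EpCAM+ S4 was at 977, against 101 to 167 in the other libraries of that group. APOA4 in wild-type piglet 2 was at 21.1, against 0.241 to 4.76 in the other pBTSC libraries, all of which were at or under the floor of 3 reads. APOA5 in wild-type piglet 2 was at 116, against 16.3 to 37.7 in the other pBTSC libraries, of which the highest was at the floor of its shallow library.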

How the results depend on the processing

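Across 1503 values of single members under the alternatives, 0 reversed direction in a comparison of pBTSCs with liver and 51 moved by more than 1 SD, 28 of them with wild-type pBTSCs alone and 10 with H2B-GFP pBTSCs alone. The difference of APOA1 between pBTSCs and CD45-/EpCAM+ cells ran from -1.83 to -1.27. Between liver groups 0 members were called under every alternative run. Pathway genes called against CD45-/EpCAM+ cells ranged from 6 to 12 higher and 34 to 37 lower, and against CD45-/EpCAM- cells from 8 to 12 higher and 31 to 38 lower. Without wild-type piglet 1, 9 members were higher in the wild-type library, where 30.5% of all genes were. The genes named as most alike depended on the measure: of the 5, 2 remained for APOA1 and 2 for APOE without the 3 shallow libraries, 1, 0 and 0 for APOA1, APOB and APOE with Spearman's rho, and 2, 0 and 1 over the liver libraries alone. Depth limits APOA2 and APOA4 in H2B-GFP piglets, at most 4.02 reads per library, and APOA4 and APOA5 in wild-type piglet 1, at most 3 reads. It also limits APOC2 in H2B-GFP piglet 3, where the level was under the floor.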
